A study of Mus musculus with 23 samples.

Results

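The treatment effects of 2 mouse models of HFpEF, heart failure in which the pumped fraction of blood is preserved, were set against each other in whole-heart RNA. For each gene, the change in db/db+Aldo hearts relative to Sham hearts was compared with the change in HFD+L-NAME hearts relative to Chow hearts. The difference of both changes (the effect in db/db+Aldo minus the effect in HFD+L-NAME) was tested. All 23 libraries of the series entered, 15 of the first model and 8 of the second. Of 55487 genes, 13589 had a mean of at least 10 normalised counts (recovered counts divided by a library size factor) in each run and were tested. Db/db+Aldo mice were Leprdb/db animals of the C57BL/6J strain carrying a subcutaneous pump with aldosterone at 0.3 µg/h, implanted at 12 weeks of age and left for 4 weeks (n = 8, 4 of them female). Sham mice were wild-type, and their pumps, also carried from 12 weeks of age for 4 weeks, held vehicle alone (n = 7, 4 of them female). HFD+L-NAME mice were wild-type C57BL/6J animals that were, for 15 weeks starting at 10 weeks of age, given food with 60 kcal% fat and water holding 0.5 g/L L-NAME (n = 4, 2 of them female). Chow mice were wild-type, age-matched and fed a standard chow (n = 4, 2 of them female). Each model joins a pair of insults that were not given singly, so genotype and aldosterone cannot be told apart, and neither can diet and L-NAME. The models also differ in sequencing run, in age, in length of treatment and in the chow of their controls, none of which can be told apart from the model. For that reason each effect was taken within its own run and treated groups were not compared directly.

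Both models add a vascular or hormonal stress to a metabolic one. Mice without a working leptin receptor overeat and become obese and diabetic, and aldosterone binds the mineralocorticoid receptor, a nuclear receptor that shares many target genes with the glucocorticoid receptor. L-NAME blocks the nitric oxide synthases and raises blood pressure, and a high-fat diet raises the supply of fatty acids. In heart muscle, fatty acids activate nuclear receptors of the PPAR family, which switch on genes of fatty acid uptake, storage, and oxidation.

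Libraries summed to 21258779 to 25692431 counts. The mitochondrial genome supplied 46.6 ± 4.13% of counts in db/db+Aldo hearts and 38.9 ± 4.68% in Sham hearts (SD, n = 8 and 7), against 48.4 ± 3.35% in HFD+L-NAME hearts and 48.1 ± 1.40% in Chow hearts (SD, n = 4 each). The share thus moved with the groups of the first model, and its part in the results was not tested. The summed level of 13 cardiomyocyte markers was 1213900.5 to 1613000.2 normalised counts in db/db+Aldo, 1308673 to 1651140.5 in Sham, 959448 to 1106483 in HFD+L-NAME and 1033808 to 1200615 in Chow libraries. Cardiomyocyte markers were thus abundant in every library, which does not show that other tissue was absent. Thymus and lung markers summed to 1526 to 2781 in db/db+Aldo and 1463 to 1761 in Sham libraries. In HFD+L-NAME they summed to 1243 to 1694 and in Chow libraries to 1297 to 1789. In such bulk samples fewer cells of a type and less RNA per cell cannot be told apart.

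At an adjusted p below 0.05 (limma, Benjamini-Hochberg), the difference was called for 732 genes, which is 5.39% of those tested. It lay above 0 for 415 genes (3.05%) and below 0 for 317 genes (2.33%). The effects behind these differences were of opposite sign in 591 of the 732 genes. Called effects were far more numerous in db/db+Aldo hearts, with 1532 genes higher (11.3%) and 1574 lower (11.6%) than in Sham. In HFD+L-NAME hearts 108 genes were higher (0.795%) and 89 lower (0.655%) than in Chow. The median standard error was 0.10 on the log2 scale for the first effect and 0.13 for the second, so a missing call in HFD+L-NAME hearts does not show that a gene was unaffected there. Of the 197 genes called in HFD+L-NAME hearts, 43.6% were also called in db/db+Aldo hearts, where 22.9% of all tested genes were called. These shared genes made up 2.77% of the db/db+Aldo calls.

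The genes were then sorted by pattern. Both effects were called with the same sign for 65 genes (0.478%), of which 46 were higher and 19 lower in both treated groups. For 4 of these 65 genes the sizes also differed. Both effects were called with opposite signs for 21 genes (0.155%), 15 of them higher in db/db+Aldo and lower in HFD+L-NAME hearts, and for all 21 the difference was called. A called effect in db/db+Aldo alone together with a called difference was found for 561 genes (4.13%, 318 higher and 243 lower than in Sham), and the mirror pattern in HFD+L-NAME alone for 77 genes (0.567%, 33 higher and 44 lower than in Chow). A further 2459 genes were called in db/db+Aldo alone without a called difference, so these are not shown to be particular to that model. Across all tested genes, which share their libraries and are not replicates, the effects had a Pearson r of 0.15 and the same sign in 53.6% of cases.

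These counts leaned on single libraries. Without db/db+Aldo replicate 5 the difference was called above 0 for 717 and below 0 for 549 genes, 37 genes were opposite and 978 were called in db/db+Aldo alone with a called difference. Without HFD+L-NAME replicate 1, 2, 3 or 4, the same-direction genes numbered 38, 29, 43 and 39, and without Chow replicate 1, 2 or 3 they numbered 35, 37 and 36. The opposite genes numbered 12, 11 and 12 without Chow replicate 1, 2 or 4, and without Chow replicate 2 the HFD+L-NAME genes with a called difference numbered 48. In each of the 23 fits that left out 1 library, 17 of the 65 same-direction genes, 8 of the 21 opposite genes, 246 of the 561 and 29 of the 77 kept their class.

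The balance of directions also depended on scaling. With size factors, 56.7% of called differences lay above 0. Without size factors the share was 18.6% (99 above and 434 below), with total-count scaling 13.1% (175 above and 1159 below) and with the deposited values taken as they were 17.7% (75 above and 349 below). The opposite genes numbered 10, 13 and 6 under these scalings in turn. They moved the median difference of all genes by -0.20, -0.21 and -0.21 on the log2 scale. Where pathway lists are given below, their median difference is therefore stated relative to the median of all genes.

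**Figure D1:**
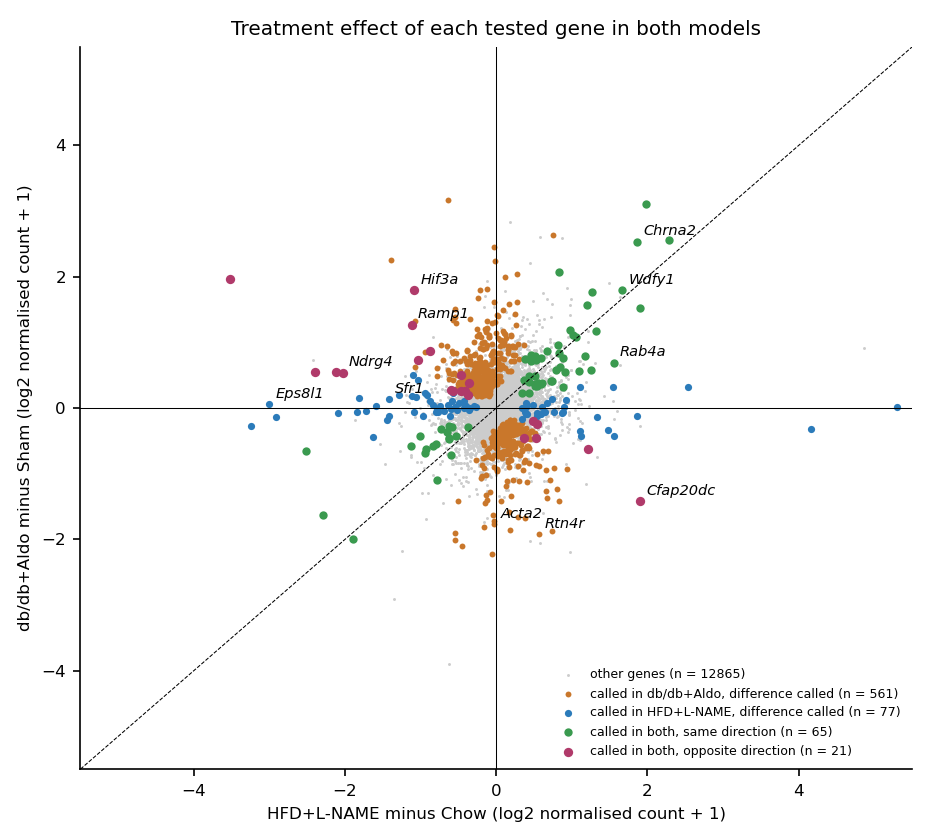
Each point is 1 of the 13589 tested genes, with the effect in HFD+L-NAME hearts (log2 scale, Chow subtracted) on the horizontal axis and the effect in db/db+Aldo hearts (log2 scale, Sham subtracted) on the vertical axis; colours give the patterns and the dashed line marks equal effects. The 65 same-direction genes lie at the upper right and lower left, and Ndrg4, Ramp1, Hif3a and Cfap20dc lie where the signs are opposite.

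The promoters of the leading genes of the 4 patterns are shown because genes that move together or apart are compared in what follows. They belong to Hsd17b11 (higher in both, chr5:104021747-104022046, minus strand), Alox5 (lower in both, chr6:116461129-116461428, minus strand), Ndrg4 (higher in db/db+Aldo and lower in HFD+L-NAME, chr8:95676724-95677023, plus strand) and Fosl2 (the reverse, chr5:32136222-32136521, plus strand). Each runs from 250 bases before to 50 bases after a transcription start in RefSeq on GRCm38.p6, and for Ndrg4, which has 4 listed starts, the one nearest to the start of the gene was taken. Capitals mark matches on either strand to AGGTCA (a core motif of nuclear receptors), TGANTCA (AP-1), CACGTG (an E-box), CCAAT (the CCAAT box), GGGCGG (a GC box) or TATAAA (the TATA box).
Hsd17b11: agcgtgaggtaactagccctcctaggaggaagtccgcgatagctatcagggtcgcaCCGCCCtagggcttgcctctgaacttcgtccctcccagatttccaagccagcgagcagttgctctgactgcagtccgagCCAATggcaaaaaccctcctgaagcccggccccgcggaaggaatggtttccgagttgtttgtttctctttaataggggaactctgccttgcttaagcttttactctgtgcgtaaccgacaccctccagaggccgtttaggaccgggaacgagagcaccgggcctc
Alox5: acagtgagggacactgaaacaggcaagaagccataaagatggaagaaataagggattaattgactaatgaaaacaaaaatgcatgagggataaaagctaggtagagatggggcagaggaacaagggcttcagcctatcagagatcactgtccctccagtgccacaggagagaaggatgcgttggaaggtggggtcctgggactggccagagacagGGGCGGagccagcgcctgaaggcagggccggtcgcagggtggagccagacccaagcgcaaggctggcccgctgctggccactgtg
Ndrg4: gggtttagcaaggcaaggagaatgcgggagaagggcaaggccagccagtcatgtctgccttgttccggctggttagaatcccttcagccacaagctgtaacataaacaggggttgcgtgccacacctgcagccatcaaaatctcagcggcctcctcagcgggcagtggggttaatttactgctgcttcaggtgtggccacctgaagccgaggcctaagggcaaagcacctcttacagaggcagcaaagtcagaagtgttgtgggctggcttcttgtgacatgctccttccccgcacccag
Fosl2: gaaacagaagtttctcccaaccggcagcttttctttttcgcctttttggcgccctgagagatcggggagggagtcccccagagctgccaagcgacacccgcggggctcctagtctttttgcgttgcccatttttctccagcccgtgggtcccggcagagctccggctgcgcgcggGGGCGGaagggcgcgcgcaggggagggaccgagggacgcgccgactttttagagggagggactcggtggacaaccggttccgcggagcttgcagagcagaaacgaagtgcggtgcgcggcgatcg
The Hsd17b11 window held 1 CCAAT box and 1 GC box, those of Alox5 and Fosl2 held 1 GC box each, and the Ndrg4 window held 0 of the 6 motifs. Among all 32851 promoters of the table, 35.7% held a GC box, 37.4% a CCAAT box, 16.3% AGGTCA, 13.6% TATAAA, 7.81% TGANTCA and 7.15% CACGTG. A match describes letters in a window and is no evidence of binding.

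Genes higher in both treated groups included enzymes of lipid droplets and acyl-CoA metabolism. Hsd17b11, a hydroxysteroid dehydrogenase of lipid droplets (ENSMUSG00000029311, chromosome 5, 103989762 to 104021919 on GRCm38, as for all positions here), had 512 to 752 with a median of 651 in db/db+Aldo hearts, against 317 to 455 with a median of 368 in Sham hearts (normalised counts, as for all levels here). The diet groups had 944, 1011, 784 and 778 in HFD+L-NAME hearts, against 379, 407, 378 and 387 in Chow hearts. Neither treated group overlapped its controls. The effect was 0.79 ± 0.07 (SE, adjusted p = 4.89e-08) in db/db+Aldo and 1.17 ± 0.10 (SE, adjusted p = 4.54e-08) in HFD+L-NAME hearts, and the difference of -0.38 (95% interval -0.63 to -0.12, adjusted p = 0.073) was not called. Under the scalings without size factors, by total counts and with deposited values, and with a separate spread per run, that difference was called below 0 (adjusted p = 0.039, 0.00797, 0.00535 and 0.0279).

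Wdfy1, an endosomal protein that binds phosphoinositides (chromosome 1, 79702262 to 79776143), had 219.9 to 378 with a median of 353 in db/db+Aldo hearts, against 85.4 to 114 with a median of 92.3 in Sham hearts. Wdfy1 in the diet model had 189, 324, 276 and 188 in HFD+L-NAME hearts, against 75.2, 78.8, 73.4 and 70.2 in Chow hearts. All treated libraries were above all libraries of their controls, and the effects of 1.79 ± 0.12 (SE, adjusted p = 9.80e-10) and 1.66 ± 0.16 (SE, adjusted p = 4.36e-07) were nearly of 1 size, with a difference of 0.13 (95% interval -0.29 to 0.55, adjusted p = 0.785). The mitochondrial acyl-CoA thioesterase Acot2 (chromosome 12, 83987861 to 83993873) had 1926 to 3885 with a median of 3521 in db/db+Aldo hearts, against 1182 to 1583 with a median of 1355 in Sham hearts. Under diet and L-NAME the values were 2017, 2592, 1911 and 1921 in HFD+L-NAME hearts, against 1039.9, 958, 1009 and 1257 in Chow hearts. Its effects were 1.19 ± 0.12 (SE, adjusted p = 2.74e-07) and 0.98 ± 0.17 (SE, adjusted p = 0.00168), with a difference of 0.21 (95% interval -0.22 to 0.65, adjusted p = 0.629), and its level is uncertain because Acot1 is a nearly identical neighbour with which it may share reads.

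Pdk4, the kinase that switches off pyruvate dehydrogenase (chromosome 6, 5483351 to 5496309), had 5239 to 32093 with a median of 23837 in db/db+Aldo hearts, against 4799 to 9311 with a median of 5503 in Sham hearts, with replicates 1 and 5 of the treated group at 5239 and 6129.9 within the Sham range. In the diet model it had 14437, 27081, 12356 and 11516 in HFD+L-NAME hearts, against 4619, 6366, 3780.0 and 2536 in Chow hearts, without overlap. The effects of 1.52 ± 0.31 (SE, adjusted p = 8.13e-04) and 1.91 ± 0.42 (SE, adjusted p = 0.0149) differed by -0.38 (95% interval -1.45 to 0.69, adjusted p = 0.746), and the second missed the threshold without Chow replicate 1 or 4 or HFD+L-NAME replicate 2 (adjusted p over all left-out libraries 0.00178 to 0.0756).

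Other genes of fat handling moved alike. Of 25 tested genes of the list of acyl-CoA thioesterases and PPAR targets, 7 were higher in both treated groups, beside 46 of 13589 tested genes overall. Among them were Acot2, Ucp3, Pdk4, Plin2, Plin5 and Mlycd. Of those named here, only Acot2 kept its class in each of the 23 fits that left out 1 library. The list's median effect was 0.26 in db/db+Aldo and 0.43 in HFD+L-NAME hearts, beside -0.02 and -0.000989 for all genes. Members called in db/db+Aldo numbered 13 higher and 4 lower, beside 11.3% and 11.6% of all tested genes. Those called in HFD+L-NAME numbered 7 higher and 0 lower, beside 0.795% and 0.655%. Ucp3, a mitochondrial carrier of the uncoupling protein family, had 589.7 to 1862 with a median of 1647 in db/db+Aldo hearts, against 407 to 1048 with a median of 650.4 in Sham hearts. Ucp3 in the diet model had 1779, 1478, 1522 and 1415 in HFD+L-NAME hearts, against 474, 773, 681 and 573 in Chow hearts, and here alone the groups did not overlap. The Ucp3 effects were 1.17 and 1.32, with a difference of -0.16 (95% interval -0.92 to 0.61, adjusted p = 0.869), and the second effect lost its call without Chow replicate 1 or 4 or HFD+L-NAME replicate 1, 2 or 3 (adjusted p 0.00198 to 0.107). The lipid droplet coat proteins Plin2 (effects 0.37 in db/db+Aldo and 0.52 in HFD+L-NAME) and Plin5 (0.75 and 0.48) rose together with the hormone-sensitive lipase Lipe (0.80 and 0.51) and the fatty acid binding protein Fabp4 (0.75 and 0.49), all 4 named after their values were seen. Each of these 4 lost its same-direction class in at least 1 fit that left out 1 library. Only 1 member differed between the models, Ppargc1b, a coactivator of PPAR and oestrogen-related receptors, which fell in db/db+Aldo (-0.58, adjusted p = 0.00456) and had an effect of 0.43 (adjusted p = 0.409) in HFD+L-NAME hearts. Without 5 libraries that an earlier analysis had singled out (replicate 3 of HFD+L-NAME, 1 and 5 of db/db+Aldo, 1 and 7 of Sham) that call was lost (adjusted p = 0.0562), and 3 other members were called above 0. The list's median difference was 0.07 relative to all genes.

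The remaining leading rises were of mixed kinds. Chrna2, a subunit of nicotinic acetylcholine receptors (chromosome 14, 66135039 to 66152948), had 76.4 to 331 with a median of 239 in db/db+Aldo hearts, against 26.8 to 44.5 with a median of 31.9 in Sham hearts. Levels in the diet model were 166, 206, 226 and 118 in HFD+L-NAME hearts, against 39.6, 50.3, 52.9 and 46.8 in Chow hearts. No treated library overlapped the controls, and the effects were 2.54 ± 0.25 (SE, adjusted p = 1.09e-07) and 1.86 ± 0.34 (SE, adjusted p = 0.00255). When these 5 libraries were dropped, its difference of 0.68 (95% interval -0.18 to 1.53, adjusted p = 0.389) was called (adjusted p = 0.0148). Rab4a, a small GTPase of recycling endosomes (chromosome 8, 123805985 to 123835287), had 74.5 to 110.5 with a median of 93.2 in db/db+Aldo hearts, against 42.0 to 87.3 with a median of 58.6 in Sham hearts. Rab4a in the diet model had 296, 289, 239 and 252 in HFD+L-NAME hearts, against 70.1, 107, 89.1 and 100.4 in Chow hearts. It rose in both, overlapping the controls in the first model, but less in db/db+Aldo hearts (0.69) than in HFD+L-NAME hearts (1.55), a difference of -0.86 (95% interval -1.28 to -0.44, adjusted p = 0.0128). The inositol monophosphatase Impa2 had effects of 0.96 ± 0.11 (SE, adjusted p = 1.52e-06) and 0.81 ± 0.16 (SE, adjusted p = 0.00498), with a difference of 0.15 (95% interval -0.25 to 0.55, adjusted p = 0.729).

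Genes lower in both treated groups included an enzyme of leukotriene synthesis and a kinase of insulin signalling. Alox5, the 5-lipoxygenase (ENSMUSG00000025701, chromosome 6, 116410077 to 116461178), had 189 to 229 with a median of 209.7 in db/db+Aldo hearts, against 261 to 436 with a median of 313 in Sham hearts. Alox5 in the diet model had 198, 181, 193 and 171 in HFD+L-NAME hearts, against 348, 366, 346 and 366 in Chow hearts. The treated libraries were all below their controls, with effects of -0.68 ± 0.09 (SE, adjusted p = 4.23e-06) and -0.94 ± 0.12 (SE, adjusted p = 2.81e-05) and a difference of 0.26 (95% interval -0.04 to 0.57, adjusted p = 0.333). Wfikkn2, a secreted inhibitor of myostatin (chromosome 11, 94235956 to 94246005), had 72.3 to 128 with a median of 90.8 in db/db+Aldo hearts, against 109 to 166 with a median of 132 in Sham hearts. The diet groups had 80.4, 73.8, 84.1 and 60.9 in HFD+L-NAME hearts, against 130.0, 130.0, 118 and 159 in Chow hearts, without overlap there. The Wfikkn2 effects of -0.57 and -0.84 differed by 0.26 (95% interval -0.16 to 0.69, adjusted p = 0.524). Slc16a7, a monocarboxylate transporter, had 57.5 to 112 with a median of 77.0 in db/db+Aldo hearts, against 128 to 222 with a median of 169 in Sham hearts. Under diet and L-NAME the values were 66.3, 63.7, 109 and 106 in HFD+L-NAME hearts, against 129, 124, 174 and 155 in Chow hearts. Both pairs of groups were apart, the effects were -1.10 and -0.78, and the second lost its call without Chow replicate 1, 2 or 3 or HFD+L-NAME replicate 1 or 2 (adjusted p 0.00553 to 0.081). The protein kinase Akt1 fell by 0.29 in db/db+Aldo and by 0.37 in HFD+L-NAME hearts on the log2 scale, a difference of 0.08 (95% interval -0.13 to 0.29, adjusted p = 0.72), but its call in HFD+L-NAME hearts was lost without Chow replicate 2 or 3 or HFD+L-NAME replicate 1 (adjusted p 0.00674 to 0.0888).

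Among genes of opposite direction, Ndrg4 stood out by size. Ndrg4 encodes a cytoplasmic protein of the NDRG family that is abundant in heart and brain (ENSMUSG00000036564, chromosome 8, 95676980 to 95715119). It had 4959 to 7537 with a median of 6449.9 in db/db+Aldo hearts, against 3565 to 4732 with a median of 4492 in Sham hearts. Ndrg4 in the diet model had 680.0, 815, 876 and 883 in HFD+L-NAME hearts, against 3128, 2993, 3335 and 3864 in Chow hearts. Every db/db+Aldo library was above every Sham library and every HFD+L-NAME library was far below every Chow library. The effects were 0.54 ± 0.07 (SE, adjusted p = 2.89e-06) and -2.03 ± 0.09 (SE, adjusted p = 6.20e-14), and the difference was 2.57 (95% interval 2.34 to 2.81, adjusted p = 7.37e-14).

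Further genes were higher in db/db+Aldo and lower in HFD+L-NAME hearts. Adamtsl4, a secreted protein of the fibrillin matrix (chromosome 3, 95676201 to 95687917), had 1403 to 1852 with a median of 1517 in db/db+Aldo hearts, against 994 to 1216 with a median of 1097 in Sham hearts. In the diet model it had 907, 911, 1029 and 1072 in HFD+L-NAME hearts, against 1289, 1162, 1468 and 1508 in Chow hearts. Groups were apart in both models, and the effects of 0.50 ± 0.07 (SE, adjusted p = 6.01e-06) and -0.47 ± 0.09 (SE, adjusted p = 0.00498) differed by 0.96 (95% interval 0.74 to 1.19, adjusted p = 7.67e-06). Tecr, the last enzyme of very-long-chain fatty acid elongation (chromosome 8, 83571698 to 83607971), had 11175 to 12963 with a median of 12106 in db/db+Aldo hearts, against 9094 to 11347 with a median of 9666 in Sham hearts. Tecr in the diet model had 11901, 11917, 13987 and 11958 in HFD+L-NAME hearts, against 16737, 15723, 16393 and 17205 in Chow hearts. The db/db+Aldo and Sham libraries overlapped and the others did not, and the effects of 0.26 and -0.41 differed by 0.67 (95% interval 0.47 to 0.87, adjusted p = 1.61e-04), which was not called without size factors (adjusted p = 0.0685). Nor was its rise in db/db+Aldo called there, with total-count scaling or with deposited values (adjusted p = 0.957, 0.555 and 0.956). Ramp1, which forms the receptor of the vasodilator CGRP with a partner protein (chromosome 1, 91179822 to 91225196), had 96.9 to 226 with a median of 149.7 in db/db+Aldo hearts, against 41.9 to 116 with a median of 64.0 in Sham hearts. Levels in the diet model were 25.0, 29.3, 35.6 and 33.8 in HFD+L-NAME hearts, against 73.1, 57.9, 62.7 and 79.0 in Chow hearts. It was higher in db/db+Aldo with overlap (1.27 ± 0.18 (SE, adjusted p = 1.96e-05)) and lower in HFD+L-NAME without (-1.12 ± 0.25 (SE, adjusted p = 0.0167)), with a difference of 2.39 (95% interval 1.75 to 3.02, adjusted p = 5.53e-05). The call in HFD+L-NAME was lost without Chow replicate 1 or 4 or HFD+L-NAME replicate 1 (adjusted p 0.00598 to 0.0857), and that of the difference was not. Hif3a, a hypoxia-inducible factor subunit (chromosome 7, 17031507 to 17062427), was low throughout, with 54.0 to 115 with a median of 69.9 in db/db+Aldo hearts, against 10.2 to 42.6 with a median of 21 in Sham hearts. Hif3a in the diet model had 14.1, 21.2, 25.7 and 23.2 in HFD+L-NAME hearts, against 47.7, 35.1, 38.2 and 63.4 in Chow hearts, and groups overlapped in neither model. The Hif3a effects were 1.79 ± 0.20 (SE, adjusted p = 5.73e-07) and -1.09 ± 0.27 (SE, adjusted p = 0.0358), with a difference of 2.88 (95% interval 2.20 to 3.57, adjusted p = 7.67e-06), and the second missed the threshold without any 1 of the 4 HFD+L-NAME libraries or of Chow replicates 1, 2 and 4 (adjusted p 0.0209 to 0.156). The SOCS box protein Spsb1 (difference 0.74) and Cspg4b (1.75) had the same signs, as did the heparan sulphate proteoglycan Sdc2 (0.86) and the amino acid transporter Slc36a2 (0.83), both named after their values were seen. Sdc2 and Slc36a2 kept their class in all fits that left out 1 library, and Spsb1 and Cspg4b did not. With deposited values the differences of Spsb1, Sdc2 and Slc36a2 were not called, and without size factors that of Spsb1 was not.

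The reverse pattern, lower in db/db+Aldo and higher in HFD+L-NAME hearts, was found for 6 genes, of which Fosl2, Zfp319, Sptb and Mtrr had a mean of at least 50 in each run and are named by rule. Fosl2, a subunit of the transcription factor AP-1 (ENSMUSG00000029135, chromosome 5, 32135801 to 32157842), had 406 to 625 with a median of 492 in db/db+Aldo hearts, against 613 to 772 with a median of 699 in Sham hearts. HFD+L-NAME and Chow groups had 605, 794, 905 and 752 in HFD+L-NAME hearts, against 501, 418, 561 and 656 in Chow hearts. Groups overlapped in both models, the effects were -0.46 ± 0.08 (SE, adjusted p = 3.32e-04) and 0.52 ± 0.12 (SE, adjusted p = 0.016), and the difference was -0.98 (95% interval -1.28 to -0.69, adjusted p = 1.61e-04). Zfp319, a zinc finger protein (chromosome 8, 95323011 to 95331950), had 292 to 363 with a median of 338 in db/db+Aldo hearts, against 424 to 532 with a median of 455 in Sham hearts. Zfp319 in the diet model had 475, 506, 447 and 496 in HFD+L-NAME hearts, against 383, 348, 399 and 361 in Chow hearts, and neither model showed overlap. The Zfp319 effects of -0.46 and 0.37 differed by -0.83 (95% interval -1.05 to -0.61, adjusted p = 5.53e-05). Mtrr, which reactivates methionine synthase (chromosome 13, 68560780 to 68582149), had 179.6 to 235 with a median of 206 in db/db+Aldo hearts, against 235 to 252 with a median of 244 in Sham hearts. The diet groups had 298, 426, 262 and 304 in HFD+L-NAME hearts, against 219, 198, 241 and 218 in Chow hearts. The Mtrr effects of -0.24 and 0.53 differed by -0.78 (95% interval -1.06 to -0.49, adjusted p = 0.00125), and neither model showed overlap, although the highest db/db+Aldo and the lowest Sham library were nearly level. Single HFD+L-NAME calls of these genes depended on the libraries: that of Fosl2 was lost without Chow replicate 2 or 3 or HFD+L-NAME replicate 2 or 3 (adjusted p 0.00838 to 0.103), that of Zfp319 without 6 of the 8 libraries of its model (0.0179 to 0.132) and that of Mtrr without Chow replicate 2 or HFD+L-NAME replicate 2 (0.00364 to 0.0658). The fall of Mtrr in db/db+Aldo was lost without db/db+Aldo replicate 4, 6 or 7 or Sham replicate 1, 2 or 5 (0.00898 to 0.0693). The differences of Fosl2, Zfp319 and Mtrr stayed called in all 23 fits that left out 1 library. Cfap20dc (chromosome 14, 8431192 to 8666240), below a mean of 50 and named after its value was seen, had 12.9 to 44.2 with a median of 21.8 in db/db+Aldo hearts, against 57.7 to 72.8 with a median of 59.4 in Sham hearts. Cfap20dc in the diet model had 171, 207, 186 and 195 in HFD+L-NAME hearts, against 59.9, 46.5, 46.0 and 47.8 in Chow hearts. Its groups were apart in both models, and the effects of -1.42 ± 0.19 (SE, adjusted p = 5.61e-06) and 1.91 ± 0.25 (SE, adjusted p = 5.41e-05) gave a difference of -3.33 (95% interval -3.97 to -2.68, adjusted p = 3.20e-07).

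**Figure D2:**
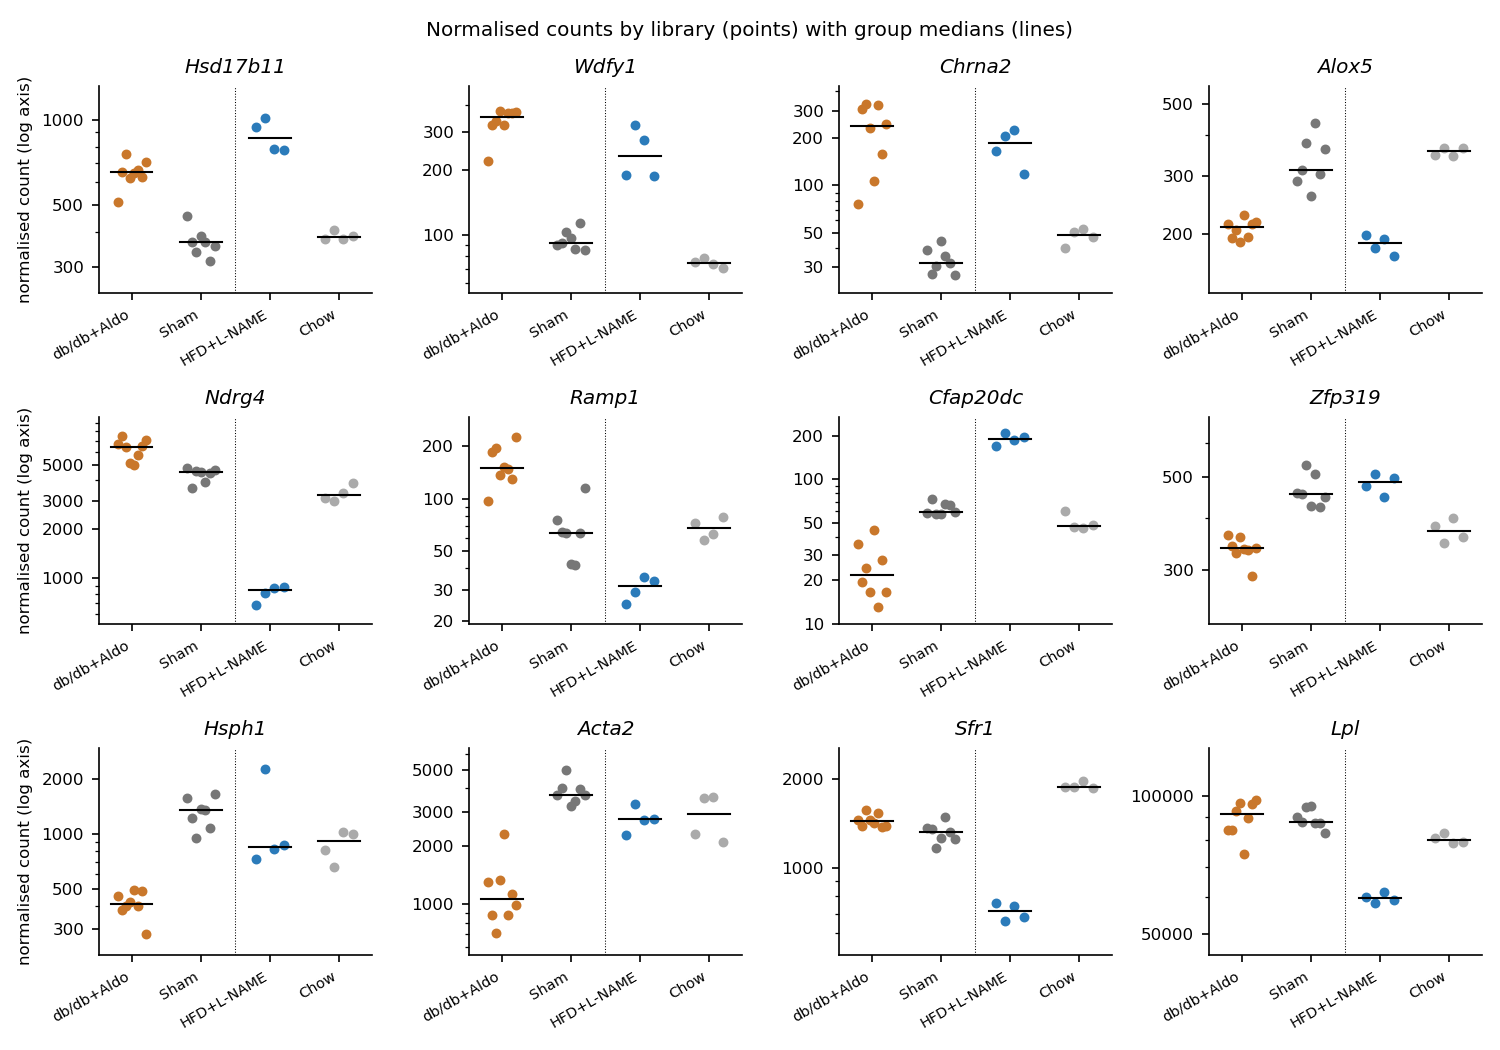
Normalised counts on log axes for 12 genes, with 1 point per library, a line at each group's median, and the db/db+Aldo model left of the dotted line. Hsd17b11, Wdfy1, Chrna2 and Alox5 moved the same way in both models, Ndrg4, Ramp1, Cfap20dc and Zfp319 moved in opposite ways, Hsph1 and Acta2 were lower in db/db+Aldo hearts alone, and Sfr1 and, with size factors, Lpl were lower in HFD+L-NAME hearts alone.

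Among mineralocorticoid and glucocorticoid receptor targets, several rose more in db/db+Aldo hearts. With size factors this list gave the most called differences of the 35 pathway lists, but under each of the 3 other scalings it gave fewer than the interferon list. Of 33 tested members, 10 had a called difference above 0 and 0 below 0, beside 415 and 317 of 13589 genes overall. In db/db+Aldo hearts 24 rose and 0 fell, beside 11.3% and 11.6% of all tested genes. In HFD+L-NAME hearts 3 rose and 0 fell, beside 0.795% and 0.655%. Among the 10 were Sgk1, Fkbp5, Per1, Dusp1, Mt1, Sult1a1, Ddit4, Nfkbia and Agtr1a. The calls of Fkbp5 and Ddit4 were lost in 11 of 42 and 8 of 42 alternative settings. The list's median difference relative to all genes was 0.52, and 0.52, 0.52 and 0.59 under the 3 other scalings (no size factors, total counts, deposited values), where 1, 6 and 1 members were called above 0. With the 5 singled-out libraries dropped, 16 were. Sgk1, a kinase that raises sodium transport (chromosome 10, 21882184 to 21999903), had 1163 to 2118 with a median of 1699 in db/db+Aldo hearts, against 777 to 1062 with a median of 844 in Sham hearts. Under diet and L-NAME the values were 1161, 1731, 1323 and 1281 in HFD+L-NAME hearts, against 1175, 1123, 1113 and 1268 in Chow hearts. It rose without overlap in the first model (0.94 ± 0.10 (SE, adjusted p = 6.47e-07)), overlapped its controls in the second (0.22 ± 0.14 (SE, adjusted p = 0.631)), and differed by 0.72 (95% interval 0.36 to 1.09, adjusted p = 0.0152). The Sgk1 difference was not called without HFD+L-NAME replicate 1 (adjusted p 6.31e-04 to 0.0512 over the 23 fits), without size factors (adjusted p = 0.154), with total-count scaling (adjusted p = 0.0834) or with deposited values (adjusted p = 0.17).

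Some circadian genes differed in the same sense. Of 27 tested genes of the circadian list, 5 had a called difference above 0 (Per1, Cry2, Tef, Ciart and Usp2) and 0 below 0, beside 3.05% and 2.33% of all tested genes. The list's median difference was 0.43 relative to all genes. The count above 0 was 3 without Chow replicate 1 or 4 or HFD+L-NAME replicate 4, and 8 when db/db+Aldo replicate 5 or Sham replicate 1 was dropped. Per1, a repressor of the core clock and a direct glucocorticoid target (chromosome 11, 69095217 to 69109960), had 1218 to 2176 with a median of 1776 in db/db+Aldo hearts, against 483 to 1520.4 with a median of 837 in Sham hearts. Per1 in the diet model had 1059, 864, 2325 and 2104 in HFD+L-NAME hearts, against 1469.5, 1036, 1708 and 2213 in Chow hearts. Groups overlapped in both models, with effects of 1.09 ± 0.17 (SE, adjusted p = 4.97e-05) and -0.09 ± 0.23 (SE, adjusted p = 0.943) and a difference of 1.18 (95% interval 0.59 to 1.76, adjusted p = 0.0142). That call was lost without Chow replicate 1 (adjusted p 0.00341 to 0.0502 over the 23 fits), without size factors, without the sex term and in the authors' deposited fold changes (adjusted p = 0.0516, 0.0645 and 0.191). The core activator Bmal1 fell in db/db+Aldo (-0.93 ± 0.16 (SE, adjusted p = 1.98e-04)), had an effect of -0.02 ± 0.22 (SE, adjusted p = 0.987) in HFD+L-NAME hearts, and its difference of -0.92 (95% interval -1.49 to -0.34, adjusted p = 0.052) was not called. It was called in 16 of 42 alternative settings, among them no size factors, total counts, deposited values and the authors' deposited tables. The labels used here give no time of day for tissue collection, so a difference in collection time cannot be told apart from treatment. Under the same 3 scalings 1, 4 and 0 members were called above 0 and 2, 2 and 1 below.

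Some enzymes of fatty acid oxidation rose more in db/db+Aldo hearts. Of 25 tested members, 19 rose and 0 fell in db/db+Aldo, beside 11.3% and 11.6% of all tested genes, and 1 (Pex11a) rose in HFD+L-NAME. A called difference was found for 7, all above 0 (Acadm, Hadh, Hadha, Acaa2, Decr1, Eci2 and Ech1), beside 3.05% of all tested genes. The median difference was 0.29 relative to all genes, and 0.29 and 0.29 without size factors and with total-count scaling, where 0 and 2 members stayed called, and 0 with deposited values. Without db/db+Aldo replicate 1 the count was 12, and 13 when the 5 singled-out libraries were dropped. Hadh, the short-chain hydroxyacyl-CoA dehydrogenase (chromosome 3, 131233419 to 131272101), had 9942 to 13836 with a median of 12666 in db/db+Aldo hearts, against 6512 to 8229.7 with a median of 7496 in Sham hearts. In the diet model it had 11530.3, 12392, 11730.4 and 12447 in HFD+L-NAME hearts, against 11394, 10702, 11219.7 and 11410.0 in Chow hearts. Both treated groups lay above their controls, but only the first effect was called (0.75 ± 0.06 (SE, adjusted p = 1.66e-08), against 0.10 ± 0.09 (SE, adjusted p = 0.742)), and the difference was 0.64 (95% interval 0.42 to 0.86, adjusted p = 6.91e-04). It was not called without size factors (adjusted p = 0.0963) or with deposited values (adjusted p = 0.124). Acsm5, a mitochondrial medium-chain acyl-CoA synthetase (chromosome 7, 119519463 to 119545551), had 162 to 282 with a median of 204 in db/db+Aldo hearts, against 67.3 to 116 with a median of 70.1 in Sham hearts. Acsm5 in the diet model had 129, 114, 119 and 81.2 in HFD+L-NAME hearts, against 122, 143, 119 and 72.1 in Chow hearts. It rose without overlap in the first model and overlapped in the second, with a difference of 1.33 (95% interval 0.94 to 1.72, adjusted p = 1.29e-04). In the uptake list 3 of 19 genes had a called difference above 0, the carnitine carrier Slc25a20 (0.60), the lipase anchor Gpihbp1 (0.49) and Lpl, and 0 had one below 0. Without db/db+Aldo replicate 5 there were 5 above 0, with the 5 singled-out libraries dropped 9, and with a replicate block 0. Under the 3 other scalings 0, 0 and 0 were above 0 and 1, 1 and 0 below, and the median difference was 0.28 relative to all genes. The Gpihbp1 call was lost in 17 of 42 alternative settings.

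Some antioxidant, mitochondrial and contractile genes had a called difference above 0, which was found for 3.05% of all tested genes. The counts here fell under each of the 3 other scalings. In oxidative stress defence 5 of 30 genes were called above 0 and 0 below: the quinone reductase Nqo1 (0.79), catalase (Cat, 0.44), the metallothionein Mt1 (0.87) and the glutathione transferases Gsta3 (0.79) and Gstm1 (0.53). Under the 3 other scalings (no size factors, total counts, deposited values) 1, 2 and 0 were, without Chow replicate 3 there were 3, and the list's median difference was 0.19 relative to all genes. Of 32 genes of pyruvate dehydrogenase and the tricarboxylic acid cycle 4 were called above 0, and of 33 sarcomere genes 4 were (Myom2, Myom3, Tcap and Lmod2). The median difference relative to all genes was 0.13 in the first of these lists and -0.04 among sarcomere genes, of which 13 of 33 lay above 0 by sign. Under the 3 other scalings 0, 0 and 0 were called above 0 in the first list and 1, 1 and 1 in the second, and the Myom2 call was lost in 24 of 42 alternative settings. Both counts dropped to 1 or 2 without any of several single libraries: 7 libraries for the first list (Chow replicates 1 to 4, HFD+L-NAME replicates 1 and 4, db/db+Aldo replicate 8) and 10 for the second (Chow 1 and 4, HFD+L-NAME 2, 3 and 4, db/db+Aldo 2, 3 and 8, Sham 2 and 6). The 13 protein genes of the mitochondrial genome had a median effect of 0.54 in db/db+Aldo and 0.06 in HFD+L-NAME hearts, a median difference of 0.49 relative to all genes, and 0 of them had a called difference. Kcne1, a regulatory subunit of the slow delayed rectifier potassium channel (chromosome 16, 92345982 to 92359468), had 165 to 776 with a median of 414 in db/db+Aldo hearts, against 80.5 to 200.5 with a median of 149 in Sham hearts. Levels in the diet model were 91.2, 132, 115 and 148 in HFD+L-NAME hearts, against 142, 87.3, 198 and 163 in Chow hearts. Its effect was 1.68 ± 0.20 (SE, adjusted p = 2.02e-06) in db/db+Aldo with overlap, and the difference was 1.92 (95% interval 1.21 to 2.63, adjusted p = 0.0015). Fkbp10, a prolyl isomerase that helps to fold collagen (chromosome 11, 100415697 to 100424824), had 513 to 944 with a median of 752 in db/db+Aldo hearts, against 326 to 402 with a median of 356 in Sham hearts. Fkbp10 in the diet model had 415, 456, 520.3 and 456 in HFD+L-NAME hearts, against 470.2, 518, 500.3 and 586 in Chow hearts. It rose without overlap only in the first pair of groups, and its difference was 1.18 (95% interval 0.84 to 1.52, adjusted p = 1.06e-04). The lysosomal thioesterase Ppt1 (difference 0.78), the synaptic vesicle protein Sv2a (1.59), Cmtm8 (0.87) and the dynactin subunit Dctn6 (0.73) completed the leading rises of db/db+Aldo hearts.

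Many chaperones and interferon genes were lower in db/db+Aldo hearts and had no called change in HFD+L-NAME hearts. Of all tested genes, 11.6% were called lower in db/db+Aldo hearts and 2.33% had a called difference below 0. Of 31 cytosolic chaperone genes, 16 fell and 0 rose in db/db+Aldo, 0 changed in HFD+L-NAME, and 6 had a called difference below 0 (Hsph1, Dnajb1, Hspa4l, Stip1, Ahsa1 and Hsp90ab1). The median difference was -0.34 relative to all genes and lay between -0.34 and -0.28 under the 3 other scalings (no size factors, total counts, deposited values), with 8, 16 and 5 called members in turn. The count was 3 without Chow replicate 2, 2 without HFD+L-NAME replicate 2 and 11 without HFD+L-NAME replicate 1. Hsph1, a chaperone that recharges Hsp70 (chromosome 5, 149614287 to 149636376), had 280.2 to 489.5 with a median of 411 in db/db+Aldo hearts, against 951 to 1654 with a median of 1348 in Sham hearts. HFD+L-NAME and Chow groups had 730.0, 2284, 827 and 871 in HFD+L-NAME hearts, against 818, 653, 1018 and 999 in Chow hearts. All 8 db/db+Aldo libraries were below all 7 Sham libraries, whereas 1 HFD+L-NAME library stood high and the other 3 lay within the Chow range. The effects were -1.67 ± 0.18 (SE, adjusted p = 5.04e-07) and 0.29 ± 0.25 (SE, adjusted p = 0.76), and the difference was -1.95 (95% interval -2.59 to -1.32, adjusted p = 3.62e-04). Of 46 interferon and antigen presentation genes, 21 fell in db/db+Aldo, 0 fell in HFD+L-NAME, and 4 differed (Oas2, Ifit3, Oas1a and Psmb10), with 3 of the 46 above 0 by sign and a median difference of -0.38 relative to all genes. The called number was 1 without Chow replicate 3, 2 without HFD+L-NAME replicate 1 or 4, 9 without db/db+Aldo replicate 3 or 5 and 7 when Sham replicate 4 was dropped. Without size factors and with total-count scaling it was 10 and 15, and with a replicate block 7. Oas2, an antiviral oligoadenylate synthetase (chromosome 5, 120730333 to 120749853), had 106 to 288 with a median of 146 in db/db+Aldo hearts, against 278 to 404 with a median of 328 in Sham hearts. Oas2 in the diet model had 455, 411, 422 and 439 in HFD+L-NAME hearts, against 318, 431, 327 and 249.5 in Chow hearts. The Oas2 effects were -1.12 ± 0.15 (SE, adjusted p = 6.69e-06) and 0.41 ± 0.20 (SE, adjusted p = 0.469), with a difference of -1.53 (95% interval -2.05 to -1.01, adjusted p = 6.46e-04) and overlap in both models.

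Single genes of insulin signalling, ketone use and smooth muscle fell in db/db+Aldo hearts alone. Irs1, the insulin receptor substrate (chromosome 1, 82233101 to 82291416), had 90.6 to 289 with a median of 175 in db/db+Aldo hearts, against 394 to 535 with a median of 507 in Sham hearts. The diet groups had 188, 226, 260.2 and 162 in HFD+L-NAME hearts, against 234, 221, 233 and 223 in Chow hearts. Every db/db+Aldo library was below every Sham library, the diet groups overlapped, and the difference was -1.31 (95% interval -1.84 to -0.78, adjusted p = 0.00291). Its relative Irs2 differed likewise (-1.81 (95% interval -2.51 to -1.11, adjusted p = 0.00205)), and no further gene among the 24 of the insulin and leptin list was called (median difference -0.0088 relative to all genes). Bdh1, which oxidises the ketone body beta-hydroxybutyrate (chromosome 16, 31422280 to 31458901), had 560.4 to 1742 with a median of 888 in db/db+Aldo hearts, against 2422 to 3776 with a median of 3012 in Sham hearts. Bdh1 in the diet model had 2545, 2733, 2186 and 2735 in HFD+L-NAME hearts, against 2323, 2373, 2780.4 and 3101 in Chow hearts. Groups were apart in the first model and overlapped in the second. Its effect was -1.62 ± 0.18 (SE, adjusted p = 7.58e-07) in db/db+Aldo hearts, and -0.05 ± 0.25 (SE, adjusted p = 0.971) in HFD+L-NAME hearts, a difference of -1.58 (95% interval -2.21 to -0.94, adjusted p = 0.00291), opposite in sign to the called differences of other genes of the ketone and branched-chain amino acid list (Ppm1k 0.81, Acadsb 0.44, Bcat2 0.48 and Aldh6a1 0.41). That list's median difference was 0.26 relative to all genes, and under the 3 other scalings 0, 0 and 1 members were called above 0. Acta2, the smooth muscle actin (chromosome 19, 34241090 to 34255590), had 711 to 2328 with a median of 1060.4 in db/db+Aldo hearts, against 3237 to 4975 with a median of 3696 in Sham hearts. Under diet and L-NAME the values were 2291, 3299, 2747 and 2775 in HFD+L-NAME hearts, against 2329, 3545, 3589 and 2102 in Chow hearts. It fell without overlap in db/db+Aldo (-1.77 ± 0.18 (SE, adjusted p = 1.84e-07)) and not by test in HFD+L-NAME hearts (-0.03 ± 0.24 (SE, adjusted p = 0.982)), a difference of -1.74 (95% interval -2.36 to -1.12, adjusted p = 0.00111). The summed level of 15 smooth muscle and pericyte markers was 65408 to 76004 in db/db+Aldo and 69659.6 to 81627 in Sham hearts, and 69749 to 78206 in HFD+L-NAME and 74609 to 88393 in Chow hearts. Acta2 was the 1 of 14 tested markers of that list with a called difference, and the part of cell composition in it was not tested.

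The leading falls of db/db+Aldo hearts by the test of the difference were regulators and receptors. Hr, a corepressor of nuclear receptors (chromosome 14, 70552212 to 70573548), had 203 to 365 with a median of 229 in db/db+Aldo hearts, against 544 to 673 with a median of 600.0 in Sham hearts. Hr in the diet model had 595, 643, 458 and 516 in HFD+L-NAME hearts, against 416, 482, 545 and 482 in Chow hearts. It fell without overlap in the first model (-1.34 ± 0.10 (SE, adjusted p = 1.90e-09)), had an effect of 0.19 ± 0.14 (SE, adjusted p = 0.668) in the second, and differed by -1.54 (95% interval -1.88 to -1.19, adjusted p = 3.24e-06). Rtn4r, the Nogo receptor (chromosome 16, 18127642 to 18152408), had 84.7 to 231 with a median of 135 in db/db+Aldo hearts, against 349.7 to 722 with a median of 556 in Sham hearts. In the diet model it had 501, 678, 458 and 471 in HFD+L-NAME hearts, against 358, 480.2, 245 and 363 in Chow hearts. Again the first pair of groups was apart and the second overlapped. The Rtn4r effects of -1.92 ± 0.20 (SE, adjusted p = 2.74e-07) and 0.56 ± 0.27 (SE, adjusted p = 0.451) differed by -2.49 (95% interval -3.19 to -1.79, adjusted p = 9.12e-05). Timeless, a replication fork protein (difference -1.30), Abtb3 (-1.66), the endothelial anticoagulant receptor Thbd (-0.84) and the zinc finger protein Zfp568 (-1.19) followed.

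Matrix genes rose mostly in db/db+Aldo hearts, and the share with a called difference was near that of all genes. Of 38 tested matrix glycoproteins, proteoglycans and cross-linking enzymes, 24 rose and 4 fell in db/db+Aldo, and 1 rose in HFD+L-NAME. Among all tested genes 11.3% rose and 11.6% fell in db/db+Aldo, and 0.795% rose in HFD+L-NAME. Of the 38, elastin (Eln, 0.73 (95% interval 0.40 to 1.07, adjusted p = 0.0083)) and the collagen prolyl hydroxylase P4ha1 (-0.95 (95% interval -1.43 to -0.47, adjusted p = 0.0151)) had a called difference, beside 5.39% of all tested genes. The list's median effect was 0.39 in db/db+Aldo and 0.21 in HFD+L-NAME hearts, and its median difference was 0.16 relative to all genes. Of 26 metalloproteinases and inhibitors 14 rose in db/db+Aldo and 3 in HFD+L-NAME hearts, with a median difference of 0.16 relative to all genes. Timp1, an inhibitor of metalloproteinases, rose in db/db+Aldo (1.46 ± 0.28 (SE, adjusted p = 4.39e-04)), had an effect of 0.13 ± 0.38 (SE, adjusted p = 0.954) in HFD+L-NAME hearts, and its difference of 1.34 (95% interval 0.37 to 2.30, adjusted p = 0.095) was not called. Such genes are called in 1 model without being shown to differ from the other.

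**Figure D3:**
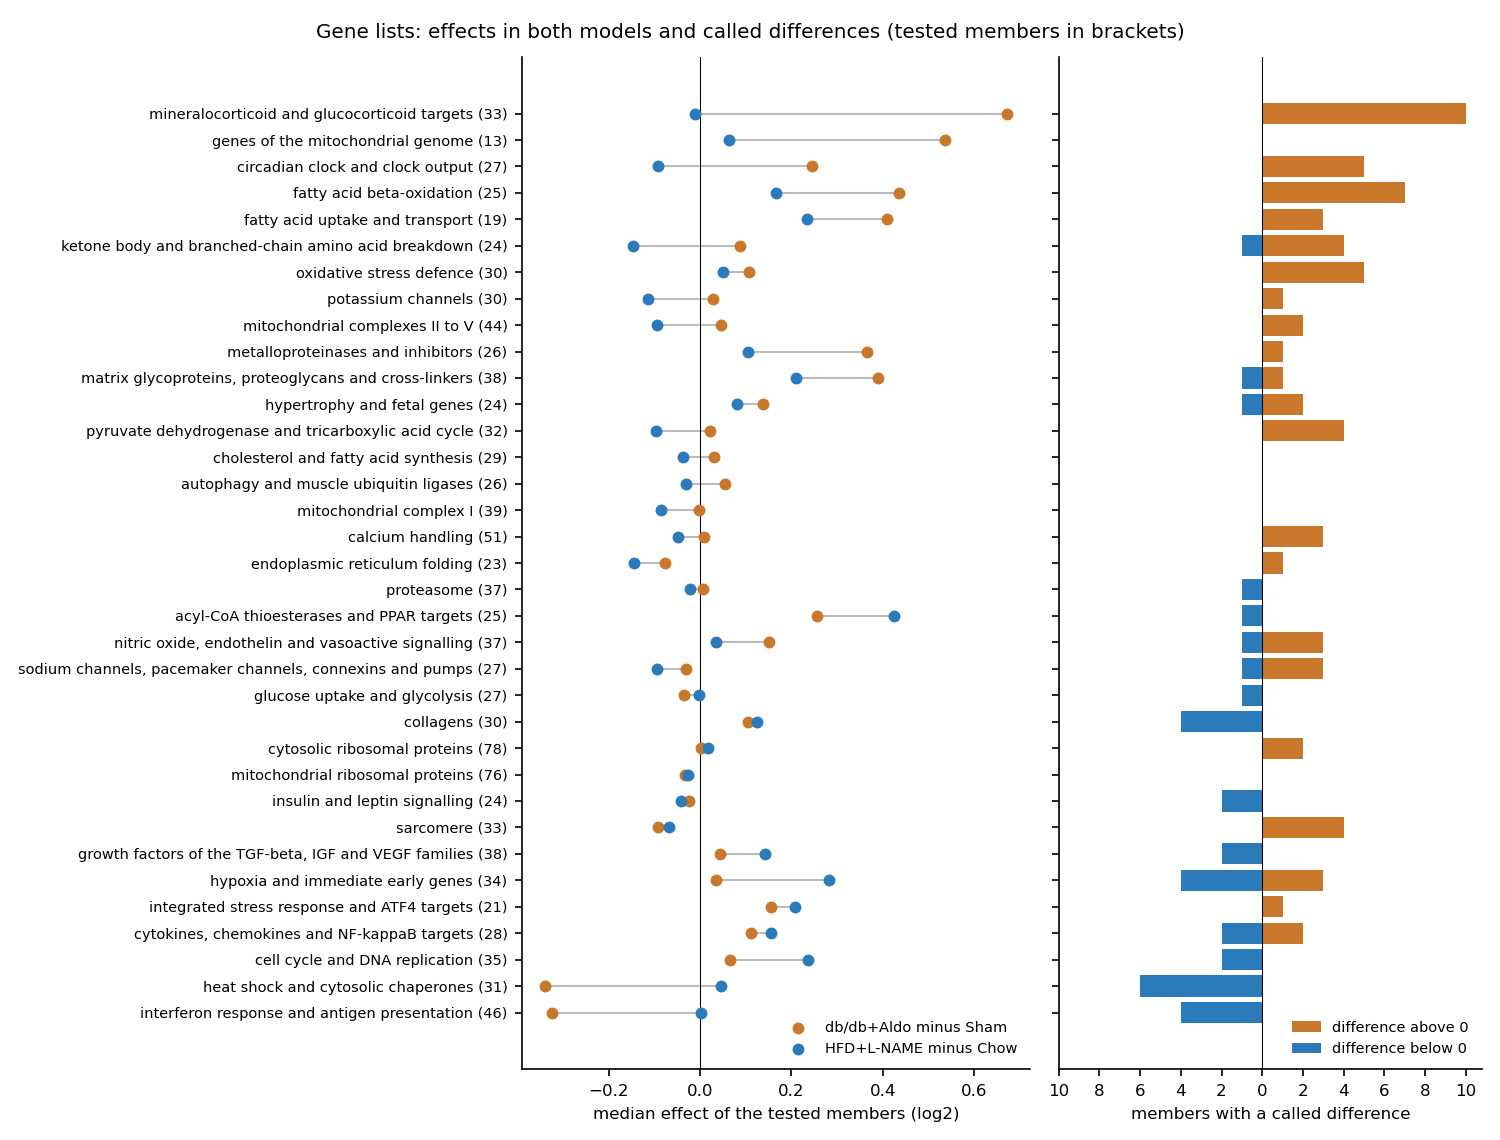
For each of 35 pathway lists, the left panel gives the median log2 effect of its tested members in db/db+Aldo (orange) and HFD+L-NAME hearts (blue), and the right panel counts members whose difference was called above 0 (orange) or below 0 (blue). Steroid receptor targets have the widest positive gap with 10 called members, and chaperones and interferon genes lie at the low end with 6 and 4.

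Genes called in HFD+L-NAME hearts alone were of other kinds. Sfr1, a partner in recombination repair (chromosome 19, 47731682 to 47735588), had 1375 to 1574 with a median of 1439.9 in db/db+Aldo hearts, against 1169 to 1487 with a median of 1328 in Sham hearts. Sfr1 in the diet model had 759, 658, 743 and 680.4 in HFD+L-NAME hearts, against 1888, 1881, 1969 and 1865 in Chow hearts. The HFD+L-NAME libraries all lay far below the Chow libraries, while the db/db+Aldo and Sham libraries overlapped. The effects were 0.13 ± 0.05 (SE, adjusted p = 0.0547) and -1.42 ± 0.07 (SE, adjusted p = 9.06e-14), a difference of 1.55 (95% interval 1.38 to 1.72, adjusted p = 1.76e-12), and the first was called when replicate 5 of either db/db+Aldo or Sham was left out (adjusted p 0.0232 to 0.124). Eps8l1, a relative of the actin regulator Eps8 (chromosome 7, 4460674 to 4480487), had 68.1 to 189 with a median of 133 in db/db+Aldo hearts, against 75.0 to 189 with a median of 114 in Sham hearts. Levels in the diet model were 23.9, 17.2, 41.5 and 4.83 in HFD+L-NAME hearts, against 114, 229, 112 and 154 in Chow hearts. It fell in HFD+L-NAME without overlap (-3.00 ± 0.39 (SE, adjusted p = 3.80e-05)), had an effect of 0.06 ± 0.28 (SE, adjusted p = 0.897) in db/db+Aldo hearts, and differed by 3.06 (95% interval 2.08 to 4.05, adjusted p = 3.57e-04). The other leading falls were Spata6l (difference 1.23), Snapc1, a subunit of the snRNA activating complex (0.84), Mri1, an enzyme of methionine salvage (0.99), and Lrrc4b (1.48). Cdc14b, a phosphatase (chromosome 13, 64189268 to 64275290), had 255 to 352 with a median of 326 in db/db+Aldo hearts, against 289 to 365 with a median of 341 in Sham hearts. Cdc14b in the diet model had 399, 467, 403 and 518 in HFD+L-NAME hearts, against 268, 233, 238 and 222 in Chow hearts. The groups of the diet model were apart and those of the other overlapped. It rose in HFD+L-NAME (0.89 ± 0.11 (SE, adjusted p = 1.20e-05)) and had an effect of -0.05 ± 0.08 (SE, adjusted p = 0.664) in db/db+Aldo hearts, with a difference of -0.94 (95% interval -1.21 to -0.67, adjusted p = 1.14e-04). Without size factors its db/db+Aldo effect was called lower (adjusted p = 0.0217), so Cdc14b was then an opposite gene. Sema3f, a semaphorin (chromosome 9, 107681500 to 107710475), had 344 to 529.5 with a median of 373 in db/db+Aldo hearts, against 354 to 487 with a median of 422 in Sham hearts. HFD+L-NAME and Chow groups had 619, 705, 544 and 531 in HFD+L-NAME hearts, against 381, 347, 306 and 367 in Chow hearts, with overlap in the first model alone. The Sema3f effects were -0.06 ± 0.09 (SE, adjusted p = 0.675) and 0.77 ± 0.12 (SE, adjusted p = 6.83e-04), with a difference of -0.83 (95% interval -1.15 to -0.52, adjusted p = 0.00184). Nkiras1, an inhibitor of NF-kappaB (-0.59), Dock8 (-0.59) and the lysosomal nuclease Dnase2a (-0.88) also rose in HFD+L-NAME hearts alone. Dock8 and Dnase2a kept this class in all 23 fits that left out 1 library, and Nkiras1 did not.

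Single basement membrane and endothelial genes were among the rises of HFD+L-NAME hearts. Col4a1, a chain of basement membrane collagen (chromosome 8, 11198423 to 11312826), had 7518 to 10082 with a median of 8603 in db/db+Aldo hearts, against 8578 to 12849 with a median of 9914 in Sham hearts. Col4a1 in the diet model had 10492, 10486, 9424 and 9317 in HFD+L-NAME hearts, against 8031, 7052, 6896 and 6071 in Chow hearts, here without overlap. Its effects were -0.22 ± 0.08 (SE, adjusted p = 0.0505) and 0.51 ± 0.11 (SE, adjusted p = 0.0131), and the difference was -0.73 (95% interval -1.01 to -0.45, adjusted p = 0.00205). The HFD+L-NAME call was lost without Chow replicate 2 or 4 (adjusted p 0.00623 to 0.0711), and a fall in db/db+Aldo was called when db/db+Aldo replicate 2, 4 or 5 or Sham replicate 1 or 2 was dropped (0.0189 to 0.163). Of 30 tested collagens, 2 were called higher in HFD+L-NAME hearts, Col4a1 and Col4a2. A called difference below 0 was found for 4, among them Col4a2 (-0.50) and Col4a4 (-0.81), and 0 lay above 0, beside 2.33% and 3.05% of all tested genes. The list's median difference was 0.01 relative to all genes. Without Chow replicate 2 or 4 there were 2 below 0. The fibrillar Col1a1 (0.15 (95% interval -0.24 to 0.53, adjusted p = 0.725)) and Col3a1 (-0.11 (95% interval -0.59 to 0.37, adjusted p = 0.848)) did not pass. Cldn5, the tight junction protein of endothelium (chromosome 16, 18776847 to 18778262), had 277 to 547 with a median of 341 in db/db+Aldo hearts, against 213 to 369 with a median of 288 in Sham hearts. The diet groups had 560.5, 709.5, 473 and 464 in HFD+L-NAME hearts, against 316, 296, 193 and 223 in Chow hearts, again apart, while the first pair of groups overlapped. It rose in HFD+L-NAME hearts (1.11 ± 0.16 (SE, adjusted p = 2.63e-04)), and its effect in db/db+Aldo hearts was 0.32 ± 0.12 (SE, adjusted p = 0.0559). The Cldn5 difference of -0.79 (95% interval -1.21 to -0.37, adjusted p = 0.0222) was lost without Chow replicate 3 or HFD+L-NAME replicate 2 (adjusted p 0.0067 to 0.0595), with a replicate block (adjusted p = 0.107), without the sex term (adjusted p = 0.0583) and when the 5 singled-out libraries were dropped (adjusted p = 0.0714). With Cldn5, the receptor Tie1 (-0.60) was the other of 14 tested endothelial markers with a called difference. Cldn5 was the 1 marker of the list called higher in HFD+L-NAME hearts, so Tie1 had no called rise there. The summed level of the list was 27802 to 32982 in db/db+Aldo, 27719 to 34107 in Sham, 26631 to 32132 in HFD+L-NAME and 23028 to 28021 in Chow hearts, and its part in these results was not tested.

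Lpl and 2 ribosomal protein genes were among the falls of HFD+L-NAME hearts. Lpl, the lipoprotein lipase that frees fatty acids from plasma lipids (chromosome 8, 68880491 to 68907448), had 74509 to 97653 with a median of 90992 in db/db+Aldo hearts, against 82770.5 to 95055 with a median of 87365 in Sham hearts. Lpl in the diet model had 60083, 58398, 61466 and 59223 in HFD+L-NAME hearts, against 80952, 82973, 78890.1 and 78999 in Chow hearts. The 4 HFD+L-NAME libraries lay below the 4 Chow libraries and the groups of the first model overlapped, with effects of 0.00 ± 0.06 (SE, adjusted p = 0.992) and -0.43 ± 0.09 (SE, adjusted p = 0.00807) and a difference of 0.43 (95% interval 0.21 to 0.65, adjusted p = 0.0171). That call was lost without size factors, with total-count scaling, with deposited values, with quantile normalization, without a filter and with a replicate block (adjusted p = 0.368, 0.24, 0.594, 0.228, 0.177 and 0.071). Under the first 3 of these the Lpl effect in db/db+Aldo was called lower (adjusted p = 0.0221, 0.0283 and 0.0119). Rpl30, a protein of the large ribosomal subunit with processed copies that can share its reads (chromosome 15, 34440505 to 34443640), had 903 to 1582 with a median of 1103 in db/db+Aldo hearts, against 846 to 1229 with a median of 1107 in Sham hearts. Under diet and L-NAME the values were 574, 858, 984 and 574 in HFD+L-NAME hearts, against 1183, 1527, 1276 and 1228 in Chow hearts, with overlap in the first model alone. The Rpl30 effects of 0.04 ± 0.11 (SE, adjusted p = 0.835) and -0.84 ± 0.16 (SE, adjusted p = 0.00365) differed by 0.88 (95% interval 0.48 to 1.27, adjusted p = 0.00766), which was not called without size factors (adjusted p = 0.0668) or with deposited values (adjusted p = 0.111). Rpl30 and Rpl15 (0.45) were the 2 of 78 ribosomal protein genes with a called difference, a share below the 5.39% of all tested genes. The list's median difference was 0.01 relative to all genes.

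Genes called in HFD+L-NAME hearts lay unevenly along the genome. Chromosome 12 held 20 called genes among 466 tested (4.29%), chromosome 8 29 of 743 (3.90%) and chromosome 14 14 of 469 (2.98%), against 3 of 666 on chromosome 10 and 1.45% overall. In db/db+Aldo hearts the called share of the autosomes ranged from 20.1% to 26.6%. When the genome was cut into 275 windows of 10000000 bases, 6 windows with at least 5 HFD+L-NAME calls held 48 of the calls in 2.92% of the genes. The called share was 12.1% in these windows and 1.13% elsewhere, and since the windows were picked by these calls this is a description. For the db/db+Aldo effect, which did not pick them, the shares were 23.7% and 22.8%.

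Several leading genes of the preceding paragraphs sat in those windows. On chromosome 8, 10 of 91 tested genes from 80000001 to 90000000 were called in HFD+L-NAME hearts, Tecr, Mri1, Misp3 and Dnase2a among them. The next window, from 90000001 to 100000000, held 6 of 55, with Fto, Zfp319 and Ndrg4, and that from 120000001 to 130000000 held 6 of 91, with Tubb3 and Rab4a. On chromosome 12, 12 of 61 genes from 70000001 to 80000000 were called, with Snapc1, Sptb and Max. The others were chromosome 13 from 60000001 to 70000000 (5 of 56, with Cdc14b and Mtrr) and chromosome 15 from 30000001 to 40000000 (9 of 42, with Sdc2 and Rpl30). Directions were mixed within a window: Zfp319 rose and its neighbour Ndrg4 fell in HFD+L-NAME hearts. The labels give 1 strain for both groups of that model, and whether the HFD+L-NAME and Chow mice shared their genetic background in these windows was not tested, so the values of genes there compare these libraries and their tie to the treatment was not tested. In these windows lay 9 of the 21 opposite genes and 30 of the 77 genes called in HFD+L-NAME with a called difference, but 6 of the 65 same-direction genes and 19 of the 561 called in db/db+Aldo with a called difference. The cut at 5 calls left out windows of chromosome 14 with few tested genes and high shares. From 1 to 10000000, 4 of 9 genes were called in HFD+L-NAME hearts (44.4%, with Cfap20dc). From 10000001 to 20000000, 4 of 22 were (18.2%, with Rpl15 and Nkiras1). A shared genetic background was not tested there either.

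**Figure D4:**
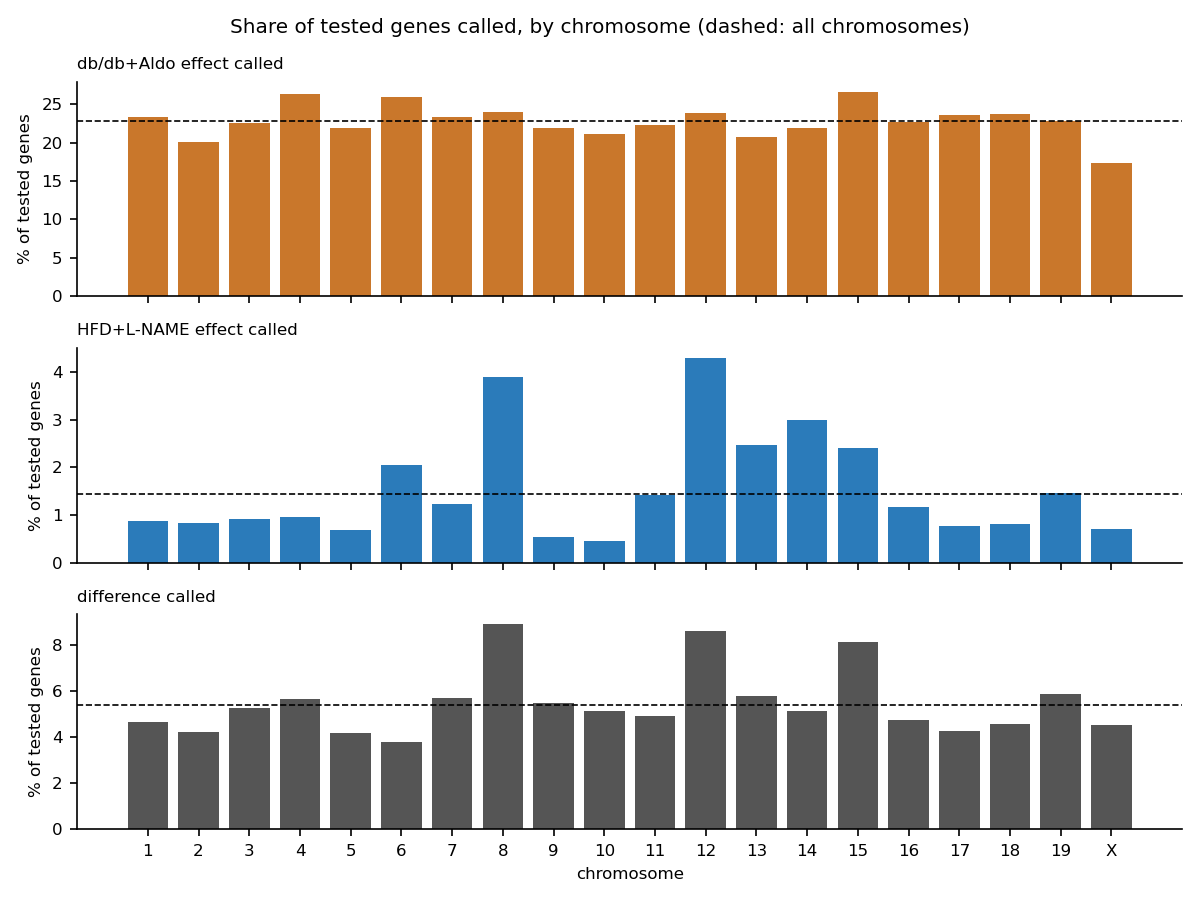
Bars give the percentage of tested genes on each chromosome with a called db/db+Aldo effect (top), HFD+L-NAME effect (middle) or difference (bottom), and dashed lines the percentage over all chromosomes. HFD+L-NAME calls reach 4.29% on chromosome 12 and 3.90% on chromosome 8, and db/db+Aldo calls are spread more evenly.

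Most genes of cardiac stress had no called difference between the models, but in the hypertrophy and fetal list the called share was above the 5.39% of all tested genes. Of 24 tested hypertrophy and fetal genes, 2 had a called difference above 0, the matricellular protein Ccn1 (0.74 (95% interval 0.37 to 1.11, adjusted p = 0.0151)) and the ubiquitin hydrolase Uchl1 (0.72 (95% interval 0.35 to 1.08, adjusted p = 0.0165)), and 1 below 0, the myosin heavy chain Myh7b (-0.97 (95% interval -1.40 to -0.53, adjusted p = 0.00742)). The list's median difference was 0.15 relative to all genes, and under the 3 other scalings 0, 0 and 0 were called above 0 and 3, 6 and 1 below. For the natriuretic peptide Nppa the effects were 0.98 ± 0.38 (SE, adjusted p = 0.0629) and 0.77 ± 0.52 (SE, adjusted p = 0.652), with a difference of 0.22 (95% interval -1.10 to 1.54, adjusted p = 0.896). Nppb had effects of -0.33 ± 0.22 (SE, adjusted p = 0.3) and 0.41 ± 0.30 (SE, adjusted p = 0.691) and a difference of -0.74 (95% interval -1.50 to 0.02, adjusted p = 0.268). The myosin heavy chains gave differences of -0.15 (95% interval -0.44 to 0.14, adjusted p = 0.603) for Myh6 and 0.14 (95% interval -0.26 to 0.55, adjusted p = 0.746) for Myh7. The calcium pump Atp2a2 (-0.06 (95% interval -0.28 to 0.15, adjusted p = 0.801)), its inhibitor Pln (0.21 (95% interval -0.06 to 0.49, adjusted p = 0.398)) and the release channel Ryr2 (-0.07 (95% interval -0.43 to 0.29, adjusted p = 0.88)) had narrow intervals, whereas those of Nppa, Nppb and Acta1 (-1.78 (95% interval -2.93 to -0.62, adjusted p = 0.0622)) reached past 1 log2 unit. The fetal actin Acta1 fell in db/db+Aldo (-1.11 ± 0.33 (SE, adjusted p = 0.0171)) and its difference was called without Chow replicate 3, HFD+L-NAME replicate 3 or db/db+Aldo replicate 5 (adjusted p 0.023 to 0.193), and in 9 of 42 alternative settings in all. The endothelial nitric oxide synthase Nos3, a target enzyme of L-NAME, had a difference of -0.50 (95% interval -0.85 to -0.16, adjusted p = 0.0747), which was called without db/db+Aldo replicate 1 or 5 (adjusted p 0.0201 to 0.185). The leptin receptor gene Lepr had -0.41 and -0.53 and a difference of 0.12 (95% interval -0.69 to 0.92, adjusted p = 0.91), and its count does not check the genotype labels, since the db mutation alters splicing and leaves most of the transcript.

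**Figure D5:**
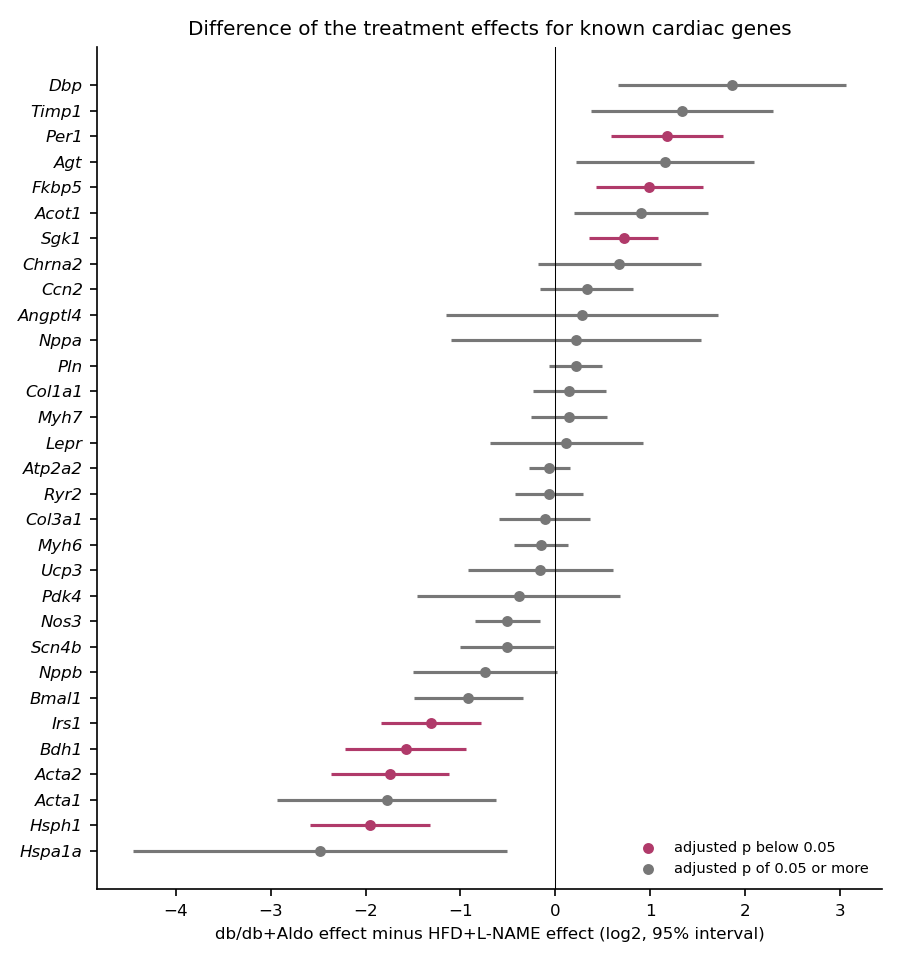
The difference of the treatment effects (log2 scale, effect in db/db+Aldo minus effect in HFD+L-NAME) with its 95% interval for 31 genes included whatever their result; red marks an adjusted p below 0.05. Per1, Fkbp5 and Sgk1 lie above 0 and Irs1, Bdh1, Acta2 and Hsph1 below 0, and the interval of Hspa1a spans -4.45 to -0.51.

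Markers of other cell types moved in places with the groups. The summed level of 14 fibroblast markers was 50465 to 59503 in db/db+Aldo and 41654 to 48642 in Sham hearts without overlap, and 40717 to 43532 in HFD+L-NAME and 35257 to 44589.8 in Chow hearts. For 16 macrophage markers it was 7986 to 10953 in db/db+Aldo and 6017 to 8958 in Sham, and 7571 to 11337 in HFD+L-NAME and 7404 to 9928 in Chow hearts. The 13 adipocyte markers summed to 5759.9 to 8939 in db/db+Aldo and 4513 to 5659.6 in Sham, and to 6506 to 8141 in HFD+L-NAME and 4919 to 5722 in Chow hearts, above the controls in both models. Only 4 of the 13 passed the filter on low values. Of these, 3 were called higher and 1 lower in db/db+Aldo hearts, and 2 higher and 0 lower in HFD+L-NAME hearts. The 2 that rose in both models were Fabp4, which endothelium also expresses, and the lipase gene Lipe. Both were named above among genes of fat handling. Red blood cell markers reached 8746 to 19095 in db/db+Aldo and 8086 to 13199.5 in Sham, and 17676 to 36008 in HFD+L-NAME and 11116 to 22991 in Chow hearts. The part of these cells in the results was not tested.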

How the data were processed

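Poly(A)-selected RNA from whole hearts was sequenced in paired 100-base reads on a BGI platform, per the labels' protocols, with the HFD+L-NAME and Chow libraries in run 1 and the db/db+Aldo and Sham libraries in run 2. Builds GRCm38 and mm10 and the tools featureCounts, limma and DESeq2 are listed in the submitters' processing notes. The aligner and the strand setting were not given in the submitters' notes. Hence reads of overlapping and antisense genes cannot be told apart.

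The authors deposited a batch-corrected table of all 23 libraries. Within a run its values for a gene differ by whole numbers (tolerance 0.001), the means of both runs are equal, and 10.24% of values are below 0, so it holds whole counts plus 1 shift per gene and run. Counts were recovered for 52392 of 55487 genes from single-read genes and from the mean normalised signal (baseMean) in the authors' tables per model, and 3095 genes could not be recovered. The deposited log2 fold changes, their standard errors and the deposited adjusted p-values were made by the authors, in the layout of DESeq2 results, and were used for 1 alternative. As the recovered counts are no deposited count table, limma on a log scale was used.

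The counts were divided by size factors and tested in limma 3.58.1 (R 4.3.3) as log2(normalised count + 1), all 23 libraries in 1 fit with 4 group means and a sex term in each run (17 residual degrees of freedom) and a variance trend. The filter was a mean of 10 normalised counts or more in each run. Two-sided p-values were adjusted by Benjamini-Hochberg over all 13589 tested genes, at 0.05. A fold change on this scale understates the change of low genes. The step was also run on simulated data in which changes were put into db/db+Aldo alone. Patterns called in both models or in HFD+L-NAME alone were thus not covered. The labels do not say whether each library is from a separate animal, so p-values measure only the spread between these libraries, which may be partly technical; no pair was alike within sampling noise (lowest chi-square per gene 6.99). Positions come from GENCODE M21 on GRCm38, with 13580 tested genes matched. Tables and figures were made with Python 3.11.15, pandas 2.3.3 and matplotlib 3.10.9.

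Of each pattern, the 6 genes per direction with the largest test statistics and a mean of at least 50 were named, with up to 3 called members per gene list and a set of 31 genes in any case. List members named beyond these 3 and the genes marked as such were named after their values were seen. Some genes that met the rule are not reported here. The 48 gene lists (35 of pathways, 13 of cell types) and the rule were chosen with earlier results of these data known. Alternatives varied the pseudocount, the filter on low values, the scaling, the variance model, the sex term, the libraries and the source of the fold changes, 42 in all. The authors' tables of females against males were not used here.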

Additional observations from a re-analysis of the deposited data

Results flagged for a closer look

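The test of the difference itself was passed by 415 genes above 0 and 317 below 0. Among the genes described, 9 had called effects of opposite direction. Their differences (log2 scale, effect in db/db+Aldo minus effect in HFD+L-NAME) were 2.57 for Ndrg4, 0.96 for Adamtsl4, 0.67 for Tecr, 2.39 for Ramp1 and 2.88 for Hif3a. For genes lower in db/db+Aldo and higher in HFD+L-NAME hearts they were -0.98 for Fosl2, -0.83 for Zfp319, -0.78 for Mtrr and -3.33 for Cfap20dc.

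In 12 of 160 sets of a gene and a group, over 40 genes, 1 library stood apart from the rest of its group by Dixon's test, which chance alone gives in about 1 of 20 sets. Library db/db+Aldo replicate 5 was the one for 4 genes, with 364.6 normalised counts of Hr, 255.2 of Cdc14b, 1582 of Rpl30 and 2328 of Acta2. Replicate 1 of that group was low in Wdfy1 with 219.9, and replicate 7 was high in Oas2 with 288.1. HFD+L-NAME replicate 2 was high in Acot2 with 2592 and in Hsph1 with 2284, and HFD+L-NAME replicate 3 in Tecr with 13987. Among controls, Sham replicate 1 was high in Rab4a with 87.35, Sham replicate 3 low in Rpl30 with 846, and Chow replicate 1 high in Cfap20dc with 59.92.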

How the results depend on the processing

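The counts are given here in 1 order: differences above 0 and below 0, same-direction genes, opposite genes, and genes of db/db+Aldo and of HFD+L-NAME with a called difference. They were 415, 317, 65, 21, 561 and 77. With array weights they were 818, 720, 148, 61, 1143 and 151. With a separate spread per run the first 2 were 670 and 545. Without size factors the first was 99, the same-direction genes 35, the opposite 10 and the last 38. Total-count scaling gave 175, 1159, 13 opposite and 1159 of db/db+Aldo. The deposited values gave 75, 26 same-direction, 6 opposite, 363 and 40. A mean of at least 50 left 50 of HFD+L-NAME. The authors' deposited tables gave 109 same-direction and 41 opposite genes. Without the 5 singled-out libraries there were 689 above 0 and 911 of db/db+Aldo. Leaving out 1 library gave 285 to 717, 212 to 549, 29 to 90, 11 to 37, 393 to 978 and 48 to 106. Of 160 genes of the naming rule, 17 had a difference that changed sign in at least 1 setting, and 0 of these had a called difference. The cause of these moves was not tested. Samples with 1 replicate number did not deviate together: correlations were 0.07 to 0.18 over 4 pairs of HFD+L-NAME and Chow, where 1 of 4 libraries was nearest to its own number, and -0.24 to 0.11 over 7 pairs of db/db+Aldo and Sham, where 0 of 8 were. With a replicate block (8 residual degrees of freedom) the counts were 298, 196, 38, 16, 375 and 51. The diet model has 4 libraries per group, which limits what its effect and the difference can show.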

Other observations

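Ion channel and calcium genes differed in places. The calcium channel regulators Rrad (effects 0.83 in db/db+Aldo and -0.06 in HFD+L-NAME, difference 0.90 (95% interval 0.50 to 1.29, adjusted p = 0.00667)) and Cacng6 (1.76 (95% interval 0.94 to 2.58, adjusted p = 0.00917)) and the T-type channel Cacna1h (0.90 (95% interval 0.45 to 1.34, adjusted p = 0.0139)) rose in db/db+Aldo hearts alone. The sodium channels Scn10a (1.19 (95% interval 0.49 to 1.88, adjusted p = 0.0374)) and Scn4a (-0.70 (95% interval -1.05 to -0.34, adjusted p = 0.0168)) and the connexin Gja3 (0.46 (95% interval 0.19 to 0.73, adjusted p = 0.0374)) also differed, but the calls of Scn10a and Gja3 were lost in 19 of 42 and 18 of 42 alternative settings. Among vasoactive genes the angiotensin receptor Agtr1a (0.79 (95% interval 0.45 to 1.12, adjusted p = 0.00427)) was above 0. In the hypoxia and immediate early list 3 of 34 genes were called above 0 and 4 below, among these the AP-1 subunit Jun (-0.998 (95% interval -1.43 to -0.57, adjusted p = 0.00533)), a partner of Fosl2. The list's median difference was -0.08 relative to all genes. Of all tested genes 3.05% were called above 0 and 2.33% below.

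Of 7 tested neuronal and Schwann cell markers, 2 fell in HFD+L-NAME hearts and 2 rose in db/db+Aldo hearts, beside 0.655% and 11.3% of all tested genes. Dopamine beta-hydroxylase (Dbh), the enzyme of noradrenaline synthesis, rose in db/db+Aldo (1.13 ± 0.14 (SE, adjusted p = 3.24e-06)) with a difference of 1.01 (95% interval 0.52 to 1.51, adjusted p = 0.0127), and the neurotrophic factor receptor Gfra3 fell in HFD+L-NAME (-1.63 ± 0.27 (SE, adjusted p = 8.96e-04)) with a difference of 1.18 (95% interval 0.50 to 1.87, adjusted p = 0.0356) whose call was lost in 12 of 41 alternative settings. The list's summed level was 1270.1 to 1547 normalised counts in db/db+Aldo and 1039 to 1182 in Sham hearts, and 1024 to 1256 in HFD+L-NAME and 1107 to 1313 in Chow hearts. The red cell anion exchanger Slc4a1 rose in HFD+L-NAME hearts (2.54 ± 0.53 (SE, adjusted p = 0.0102)), with a difference of -2.22 (95% interval -3.58 to -0.86, adjusted p = 0.0477) whose call was lost in 25 of 39 alternative settings, among them a replicate block.

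Lists of the authors' deposited table of shared genes overlapped with the classes above. Of their 75 symbols higher in both models 74 were tested and 37 were among the 46 found here, which is 50% of the tested symbols and 80.4% of the class. For genes lower in both, 14 were shared, 45.2% of the authors' tested symbols and 73.7% of the class. Of genes higher in db/db+Aldo and lower in HFD+L-NAME hearts 12 were shared (46.2% and 80.0%), and of the reverse 6 (42.9% and 100%). The authors' lists come from the same libraries, so this overlap is no independent check.

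Within 10 Mb of Lepr, the gene mutated in db/db mice, 24 of 83 tested genes were called in db/db+Aldo hearts (28.9%), and within 20 Mb 58 of 190 (30.5%), beside 22.9% of all genes. On the whole of chromosome 4, which holds Lepr, 219 of 833 were called (26.3%). The difference between the models was called for 4 (4.82%) and 11 (5.79%) of them, beside 5.39% of all.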
